A study of Homo sapiens with 6 samples.

Results

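Gene families named as histone demethylases, histone deacetylases and sirtuins were examined in RNA-sequencing values of H1975, a human line of non-small cell lung cancer that carries mutant EGFR. The families were chosen with earlier results of these data known, and members were then taken by gene symbol. The rule took KDM with a digit and a letter from A to F (without KDM5D). It also took HDAC with a number and SIRT with a number up to 7. This gave 36 of the 27216 rows, of which 18 were histone demethylases, 11 were zinc-dependent deacetylases and 7 were sirtuins. The 3 parental samples (0 h) and the 3 adapted samples (72 h of osimertinib, Osi, an EGFR tyrosine kinase inhibitor) came from the same WT line, and the labels give a dose of 1000 nM. The parental columns are headed DMSO, and whether these cells were untreated or kept in vehicle is not stated, so drug, vehicle and time in culture cannot be told apart. Apoptotic cells were washed off before the adapted samples were lysed. The labels also describe an RNase R step, which digests linear RNA, while the study's methods name total RNA. The study describes its experiments in general as independent, with technical replicates, and does not say for RNA sequencing whether the 3 replicates were separate cultures, so p-values measure the spread between these samples, which may be technical.

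Levels are given as log2(FPKM + 1), FPKM being fragments relative to the length of the transcript and the size of the library. The values themselves point to a log2(value + 1) scale, and FPKM as the unit was assumed. A log2 fold change is the adapted minus the parental mean on this scale and understates the change of genes with low levels. Depth per sample is not known. The summed linear values ran from 375342 to 387753 per sample, and mitochondrially encoded genes held 8.07% to 8.66% of them in parental and 9.73% to 12.2% in adapted samples. Adapted replicate 1 stood apart: its correlation with the other adapted samples was 0.991, against 0.996 between those 2, and it lay nearer to the parental samples (r = 0.972 to 0.973) than they did (0.963 to 0.964). Of the epithelial markers, EPCAM (7.60 in parental, 7.45 in adapted) and EGFR (9.06 and 9.07) were high in both groups, and of the 7 markers 1 was called higher (KRT7, 9.39 to 10.5) and 3 lower (KRT8, 9.82 to 9.54, KRT18, 9.74 to 9.17, and KRT19, 9.87 to 9.12). The part of these markers in the results was not tested. The 4 leukocyte markers summed to 0.114 to 0.767 FPKM per sample, with CD3E at 0 in all 6, and the 3 endothelial markers summed to 1.13 to 3.47 FPKM.

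Histone methyl groups are removed by enzymes of different chemistry. KDM1A and KDM1B are flavin-dependent amine oxidases, and the other KDM families are jumonji dioxygenases that need iron and 2-oxoglutarate. Class I, II and IV deacetylases use zinc, and some act inside corepressor complexes. Sirtuins consume NAD and work in the nucleus, the cytosol or the mitochondria. In EGFR-mutant lung cancer cells, histone demethylases and deacetylases are widely studied for their part in drug-tolerant states.

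A pair of closely related genes in each of the first 2 families moved in opposite directions, so their coding sequences are shown to make plain how far reads can tell them apart. HDAC1 and HDAC2, the paired catalytic subunits of the Sin3, NuRD and CoREST complexes, were identical at 1096 of 1444 aligned coding bases (75.9%). The most similar stretch of 90 bases in exon 2 of each lies at chr1:32302638-32302727 (plus strand) for HDAC1 and at chr6:113959912-113960001 (minus strand) for HDAC2 in GRCh38, and capitals mark the 15 bases at which they differ.
HDAC1: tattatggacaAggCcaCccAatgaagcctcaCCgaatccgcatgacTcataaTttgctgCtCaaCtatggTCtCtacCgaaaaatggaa
HDAC2: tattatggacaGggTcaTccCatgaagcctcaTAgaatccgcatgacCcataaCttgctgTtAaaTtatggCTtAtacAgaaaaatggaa
KDM4A and KDM4C, demethylases of trimethylated lysines on histone H3, were identical at 2072 of 3038 aligned coding bases (68.2%). Their most similar stretch of 90 bases lies in exon 8 of both, at chr1:43666963-43667052 (plus strand) and chr9:6893104-6893193 (plus strand), and differs at 11 bases, again in capitals.
KDM4A: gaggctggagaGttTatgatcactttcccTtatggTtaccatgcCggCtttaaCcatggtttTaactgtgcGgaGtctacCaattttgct
KDM4C: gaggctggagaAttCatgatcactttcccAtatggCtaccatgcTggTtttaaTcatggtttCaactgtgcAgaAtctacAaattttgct
The longest identical run was 17 bases in both pairs. Of the stretches of 50 bases in GENCODE v29 transcripts, 0.212% of those of HDAC1 recurred in another gene (the pseudogene HDAC1P2), 0.159% of those of HDAC2 and 0.840% of those of KDM4C, but 46.2% of those of KDM4A, whose exons overlap those of AL451062.3 on the same strand and of KDM4A-AS1 on the opposite strand.

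Of the 36 members, 34 had a mean level of at least 1 and were tested, while KDM4E and KDM4F were listed at 0 in all 6 samples. With limma's test and Benjamini-Hochberg adjustment over all 12656 rows tested, 17 of the 34 passed the threshold of 0.05, and 11 of these were higher and 6 lower in adapted cells. Over all rows tested, 56.9% passed, 30.7% as higher and 26.2% as lower, so the members' shares were close to the background. The groups did not overlap for 11 members that were higher and 8 that were lower, against 35.7% and 30.6% of all rows (66.3% in either direction). Only 5 of the 34 (HDAC1, HDAC2, HDAC6, KDM3A and SIRT7) passed and also moved by 0.5 or more on the log2 scale, which 30.0% of all rows did. The median absolute log2 fold change was 0.21 for the members and 0.31 for all rows.

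**Figure D1:**
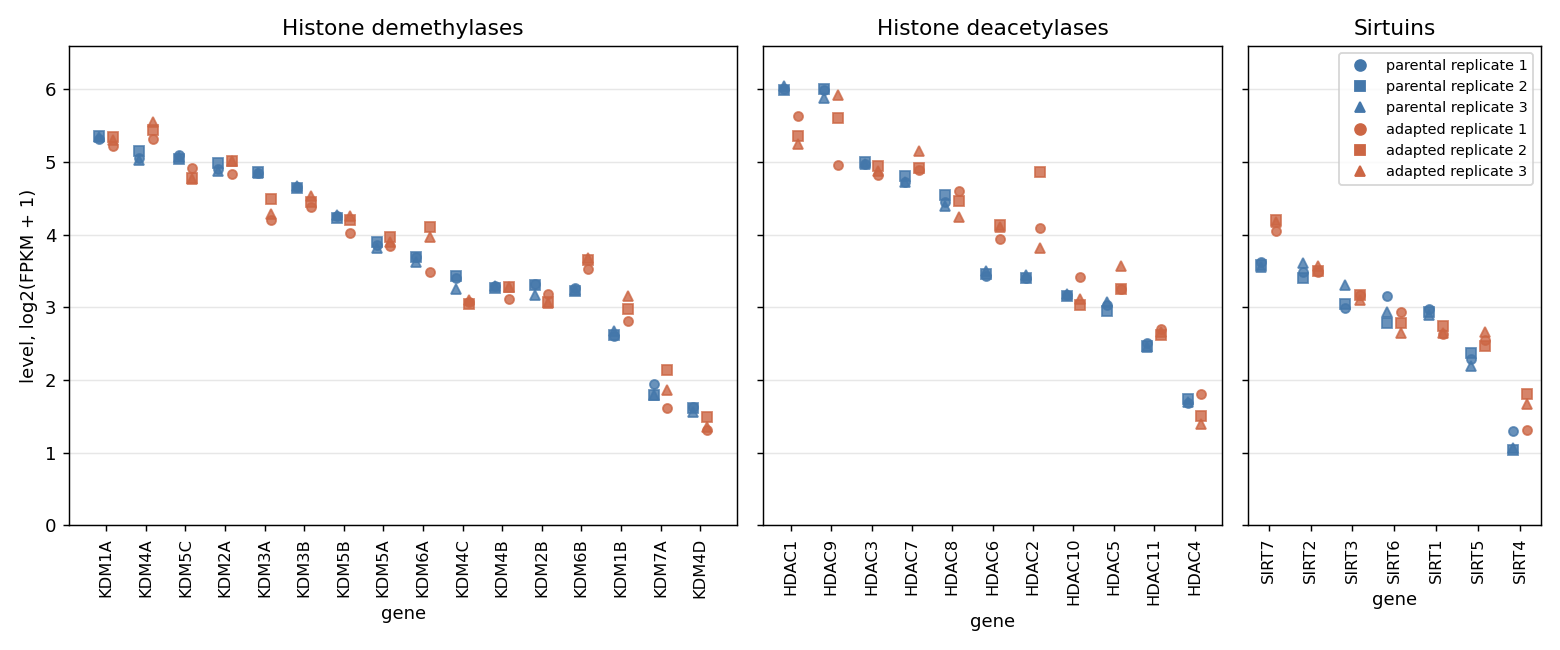
Level of each tested member, as log2(FPKM + 1), in each of the 3 parental (blue) and 3 adapted (orange) samples, with genes ordered by their parental mean within each family. Levels of HDAC1 and KDM3A were lower and those of HDAC6, KDM6B and SIRT7 higher in every adapted sample than in every parental sample.

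Histone demethylases moved in both directions by modest amounts. Of the 16 tested, 3 rose (KDM1B, KDM4A and KDM6B) and 4 fell (KDM3A, KDM3B, KDM4C and KDM5C), against 30.7% and 26.2% of all rows. The other 9 did not pass the test. The median log2 fold change was -0.05, against 0.03 for all rows tested. Both KDM3 members kept by the symbol rule were lower, while 1 of the 2 KDM1 and 1 of the 2 KDM6 members were higher. The KDM4 family was split.

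KDM3A, which removes mono- and dimethyl marks of silent chromatin, had log2 levels of 4.85, 4.87 and 4.85 in parental replicates 1 to 3 and of 4.21, 4.50 and 4.28 in adapted replicates 1 to 3. The groups did not overlap, and the parental values spanned a much narrower range than the adapted ones. KDM3A fell by 0.53 on the log2 scale (SE 0.08, limma adjusted p = 0.00138), from a mean of 27.9 to 19.2 FPKM. Its paralog KDM3B had log2 levels of 4.66, 4.64 and 4.67 in parental and 4.38, 4.46 and 4.53 in adapted samples, again without overlap. The fall of KDM3B was smaller, at 0.20 (SE 0.06, limma adjusted p = 0.0265).

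In the KDM4 family, which acts on trimethylated lysines, KDM4A had log2 levels of 5.05, 5.15 and 5.02 in parental samples and 5.32, 5.44 and 5.56 in adapted samples. It rose by 0.36 (SE 0.08, limma adjusted p = 0.00582), and its mean went from 32.8 to 42.5 FPKM. Since 48.5% of its exonic bases overlap other gene models, reads of AL451062.3 on the same strand could be counted with it. KDM4C, the paralog shown above, had log2 levels of 3.40, 3.43 and 3.26 in parental samples and 3.08, 3.05 and 3.10 in adapted samples. All adapted values lay below all parental values, and the fall was 0.29 (SE 0.07, limma adjusted p = 0.0105). KDM4D, at log2 levels of 1.62, 1.62 and 1.56 against 1.31, 1.48 and 1.35, also did not overlap between groups, but its log2 fold change of -0.22 missed the threshold (limma adjusted p = 0.0616), which it passed after quantile normalization (0.0262), after median centering (0.04) and without an intensity trend (0.0346). For KDM4B the levels overlapped, at 3.29, 3.26 and 3.29 in parental and 3.11, 3.28 and 3.28 in adapted samples.

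KDM6B (JMJD3) and KDM6A (UTX) both remove the repressive methyl mark that EZH2 lays down. KDM6B had log2 levels of 3.27, 3.23 and 3.24 in parental and 3.53, 3.65 and 3.68 in adapted samples, so every adapted value was the higher. The rise was 0.37 (SE 0.07, limma adjusted p = 0.00249). KDM6A had 3.69, 3.70 and 3.63 in parental samples but 3.49, 4.10 and 3.97 in adapted samples. Adapted replicate 1 lay below the parental range and the other 2 above it, and the log2 fold change of 0.18 did not pass (SE 0.15, limma adjusted p = 0.331). It was 0.36 without adapted replicate 1 (limma adjusted p = 0.00174) and 0.06 without adapted replicate 2 (0.76).

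Of the flavin-dependent enzymes, KDM1B (LSD2) had log2 levels of 2.60, 2.62 and 2.68 in parental and 2.81, 2.97 and 3.15 in adapted samples. It rose by 0.35 (SE 0.10, limma adjusted p = 0.0183). KDM1A (LSD1), the catalytic partner of HDAC1 and HDAC2 in CoREST, was the most abundant demethylase of the parental samples and had log2 levels of 5.31, 5.37 and 5.35 there, against 5.22, 5.34 and 5.31 in adapted samples. These ranges overlapped, and the difference was -0.05 with a 95% interval from -0.19 to 0.08.

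KDM5 enzymes strip methyl groups from the lysine that marks active promoters. KDM5C, the X-linked member of the family, had log2 levels of 5.10, 5.04 and 5.07 in parental and 4.92, 4.78 and 4.77 in adapted samples. It fell by 0.24 (SE 0.06, limma adjusted p = 0.0134), and no adapted value reached the parental range. KDM5A had 3.86, 3.91 and 3.82 against 3.85, 3.97 and 3.90, and KDM5B had 4.26, 4.23 and 4.27 against 4.02, 4.21 and 4.26, both with overlap. Their log2 fold changes of 0.04 and -0.09 did not pass the test.

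The KDM2 enzymes pair a jumonji domain with binding to unmethylated CpG islands. KDM2A had log2 levels of 4.90, 4.98 and 4.88 in parental and 4.83, 5.01 and 5.01 in adapted samples, and KDM2B had 3.32, 3.31 and 3.18 against 3.18, 3.07 and 3.06. Both pairs of ranges overlapped, and the log2 fold changes were 0.03 and -0.16 (limma adjusted p = 0.76 and 0.0915). KDM7A was low, at 1.95, 1.79 and 1.79 against 1.61, 2.14 and 1.87, and its values did not separate the groups.

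KDM3A, KDM4A and KDM6B passed in each of the 6 fits that left out 1 sample, whereas 1 or more of these fits ended the calls of the other 4 demethylases. KDM1B missed the threshold without parental replicate 1 (log2 fold change 0.33, limma adjusted p = 0.0649) or parental replicate 2 (0.34, 0.0615), KDM4C without parental replicate 2 (-0.26, 0.0542) and KDM5C without parental replicate 1 (-0.23, 0.0585). KDM3B missed it without parental replicate 1 (-0.20, 0.0848), 2 (-0.21, 0.0778) or 3 (-0.19, 0.0917) and without adapted replicate 2 (-0.20, 0.0533). Lower calls numbered 2 without parental replicate 1 or 2. Of all 12656 rows tested, 5822 and 5763 were called in these 2 fits, against 7202 with all samples. Without adapted replicate 1, when 8370 of all rows were called, 4 demethylases were higher and 5 lower, with KDM6A and KDM2B (-0.20, limma adjusted p = 0.0319) added. KDM4D passed without adapted replicate 2 (-0.27, limma adjusted p = 0.0398). With no filter on low levels KDM1B was lost (limma adjusted p = 0.0565), and KDM3B was lost with all samples brought to the same sum of nuclear genes (0.0938).

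Among the 11 deacetylases, 1 fell (HDAC1) and 5 rose (HDAC2, HDAC5, HDAC6, HDAC7 and HDAC11), against 26.2% and 30.7% of all rows tested. The other 5 of the 11 did not pass the test, and the median log2 fold change was 0.02. That median was below 0 after quantile normalization (-0.0093), after centering each sample on its median (-0.0037) and without adapted replicate 1 (-0.066). Each of the 11 had a larger SD in adapted than in parental samples, as 79.9% of all rows tested did.

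**Figure D2:**
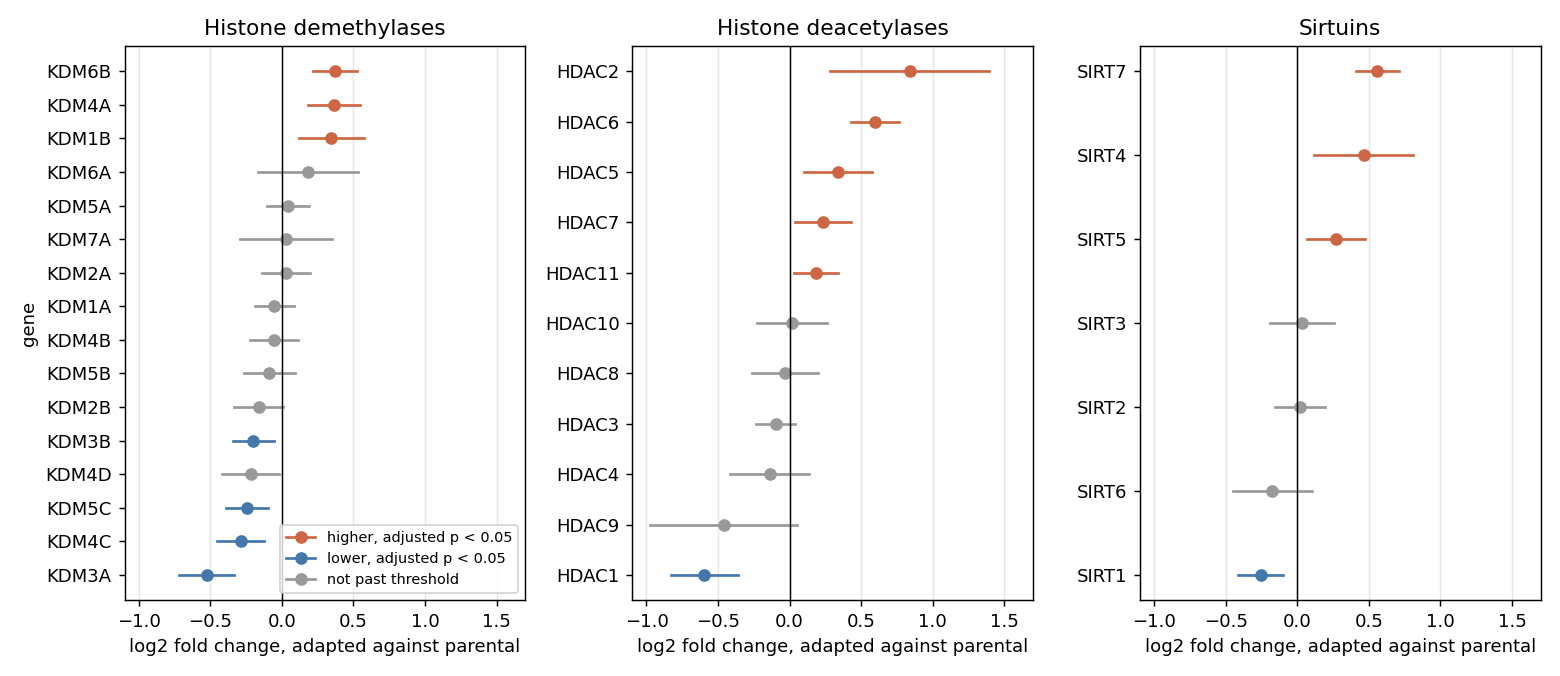
Log2 fold change of each tested member (adapted against parental, 3 samples each), with its 95% limma interval. Colors mark members past the adjusted threshold as higher (orange) or lower (blue). The largest rise was that of HDAC2 (0.84), which also had the widest interval (0.28 to 1.40), and the largest fall was that of HDAC1 (0.60).

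HDAC1 had log2 levels of 6.0, 5.99 and 6.05 in parental and 5.64, 5.35 and 5.25 in adapted samples. Every adapted value lay below the parental range, and adapted replicate 1 lay nearest to it. HDAC1 fell by 0.60 (SE 0.10, limma adjusted p = 0.00185), from a mean of 63.5 to 41.9 FPKM. HDAC2, its partner in the same complexes, had log2 levels of 3.41, 3.41 and 3.44 in parental samples and 4.10, 4.86 and 3.82 in adapted samples. All 3 adapted values were above the parental ones, but they spread over a full log2 unit, with replicate 2 the highest. HDAC2 rose by 0.84 (SE 0.24, limma adjusted p = 0.0188), and by 0.54 without adapted replicate 2 (limma adjusted p = 0.00548).

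The remaining class I enzymes moved less. HDAC3, the catalytic subunit of the NCoR and SMRT complexes, had 4.98, 5.0 and 4.97 in parental and 4.82, 4.95 and 4.88 in adapted samples. The groups did not overlap, yet the log2 fold change of -0.10 was not past the threshold (limma adjusted p = 0.188). HDAC8, which deacetylates cohesin, had overlapping log2 levels of 4.45, 4.55 and 4.40 against 4.60, 4.46 and 4.25.

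Class IIb comprises HDAC6, the cytoplasmic deacetylase of tubulin, and HDAC10, a polyamine deacetylase. HDAC6 had log2 levels of 3.44, 3.46 and 3.51 in parental and 3.94, 4.14 and 4.10 in adapted samples, well apart. It rose by 0.59 (SE 0.07, limma adjusted p = 0.000406), from a mean of 10.1 to 15.7 FPKM. HDAC10 had 3.17, 3.16 and 3.19 against 3.42, 3.03 and 3.11, so adapted replicate 1 lay above and the other 2 below the parental range, and 55.8% of its exonic bases overlap MAPK12 on the same strand.

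Class IIa enzymes shuttle between nucleus and cytoplasm and bind MEF2 factors. HDAC5 had log2 levels of 3.03, 2.95 and 3.08 in parental and 3.25, 3.25 and 3.57 in adapted samples and rose by 0.34 (SE 0.10, limma adjusted p = 0.025). HDAC7 had 4.73, 4.81 and 4.73 against 4.89, 4.92 and 5.16, a rise of 0.23 (SE 0.08, limma adjusted p = 0.0467). In both genes adapted replicate 3 was the highest sample, and 11.2% of the exonic bases of HDAC7 overlap genes on the opposite strand, which matters only if reads were counted without strand, a setting not given in the sources used here. HDAC9 had 5.99, 6.01 and 5.88 in parental samples, next to HDAC1 at the top of the family, and 4.96, 5.61 and 5.93 in adapted samples. Adapted replicate 1 was far below the parental range and replicate 3 inside it, and the log2 fold change of -0.46 did not pass (SE 0.22, limma adjusted p = 0.109). It was -0.19 without adapted replicate 1 (limma adjusted p = 0.117) and -0.67 without adapted replicate 3 (0.0237). HDAC4 was low in all samples, at 1.69, 1.73 and 1.69 against 1.81, 1.50 and 1.39, with overlap. HDAC11, the only class IV enzyme, had 2.51, 2.47 and 2.46 against 2.71, 2.62 and 2.66 and rose by 0.18 (SE 0.07, limma adjusted p = 0.0478).

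HDAC1 and HDAC6 passed in each of the 6 fits without 1 sample. Without any 1 parental sample HDAC6 was the only deacetylase called higher. All rows called numbered 5822, 5763 and 5855 without parental replicates 1, 2 and 3, against 7202 with all samples. HDAC2 then missed the threshold narrowly (without parental replicate 1, 0.84 and limma adjusted p = 0.0538; replicate 2, 0.83 and 0.0538; replicate 3, 0.85 and 0.0504), as did HDAC5 (0.35 and 0.0664, 0.30 and 0.0902, 0.37 and 0.0529). HDAC7 passed only without adapted replicate 1, and its values elsewhere ran from 0.15 without adapted replicate 3 (limma adjusted p = 0.0804) to 0.27 without adapted replicate 2 (0.0575), with 0.22, 0.26 and 0.22 without parental replicates 1, 2 and 3 (0.132, 0.0812 and 0.132). HDAC11 passed in none of the 6 fits, at 0.16 to 0.20 and limma adjusted p up to 0.147. Higher calls numbered 4 without adapted replicate 1 and 3 without adapted replicate 2 or 3. Of all rows, 8370, 6461 and 6651 were called without adapted replicates 1, 2 and 3. A second lower call appeared without adapted replicate 1 (HDAC4, -0.26, limma adjusted p = 0.0194) and without adapted replicate 3 (HDAC9, -0.67, 0.0237). With no filter on low levels HDAC2 (limma adjusted p = 0.098), HDAC5 (0.0787) and HDAC7 (0.109) were lost, HDAC7 was lost without an intensity trend (0.0574), and HDAC7 and HDAC11 were lost after quantile normalization or median centering.

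SIRT7 was higher in every adapted than in every parental sample. Of the 7 sirtuins, 3 rose (SIRT4, SIRT5 and SIRT7), SIRT1 fell and 3 did not pass, with a median log2 fold change of 0.03. Of all rows tested, 30.7% were called higher and 26.2% lower. Both SIRT4 and SIRT5 are mitochondrial, as is SIRT3, whose levels overlapped between groups.

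SIRT7, a nucleolar enzyme tied to ribosomal RNA transcription, had log2 levels of 3.62, 3.58 and 3.56 in parental and 4.06, 4.20 and 4.18 in adapted samples. The groups were far apart relative to their spread. SIRT7 rose by 0.56 (SE 0.06, limma adjusted p = 0.000326), from a mean of 11.0 to 16.7 FPKM. SIRT1, the nuclear deacetylase of p53 and many other factors, had log2 levels of 2.98, 2.93 and 2.89 in parental and 2.64, 2.74 and 2.65 in adapted samples. It fell by 0.26 (SE 0.07, limma adjusted p = 0.0143), without overlap.

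SIRT6, a nuclear enzyme of telomeres and DNA repair, had 3.15, 2.79 and 2.93 against 2.93, 2.78 and 2.64. These ranges overlapped and the log2 fold change of -0.17 did not pass (limma adjusted p = 0.238). It was -0.08 without parental replicate 1 (limma adjusted p = 0.619) and -0.10 without adapted replicate 3 (0.513). SIRT2, mostly cytosolic, had 3.49, 3.40 and 3.61 against 3.49, 3.50 and 3.57, a difference of 0.02 with a 95% interval from -0.15 to 0.19.

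Of the mitochondrial sirtuins, SIRT4 was the least abundant member of the family, at log2 levels of 1.29, 1.03 and 1.06 in parental and 1.30, 1.80 and 1.67 in adapted samples. Adapted replicate 1 lay barely above parental replicate 1. SIRT4 rose by 0.46 (SE 0.15, limma adjusted p = 0.0297), or by 0.71 on the log2(FPKM + 0.1) scale (0.0301). SIRT5, a desuccinylase, had log2 levels of 2.29, 2.37 and 2.20 against 2.55, 2.46 and 2.66 and rose by 0.27 (SE 0.09, limma adjusted p = 0.0302), though 16.1% of its exonic bases overlap the antisense gene AL441883.1. SIRT3, the main mitochondrial deacetylase, had 2.99, 3.04 and 3.31 against 3.18, 3.17 and 3.09, and parental replicate 3 was the highest of its 6 values.

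SIRT7 passed in all 6 fits without 1 sample. SIRT1 missed the threshold without parental replicate 1 (-0.23, limma adjusted p = 0.0665) or 2 (-0.26, 0.0564). SIRT4 missed it without parental replicate 2 (0.42, 0.097) or 3 (0.43, 0.0923) and without adapted replicate 2 (0.36, 0.0933) or 3 (0.43, 0.0861). SIRT5 missed it without parental replicate 1 (0.27, 0.0841) or 3 (0.22, 0.115) and without adapted replicate 3 (0.22, 0.0823). Without parental replicate 3 or adapted replicate 3, SIRT7 was thus the only sirtuin called higher, while all 3 stayed called without adapted replicate 1. All rows called numbered 5855, 6651 and 8370 in these fits, in the order given, against 7202 with all samples. The family median was 0.13 without parental replicate 3 and -0.0020 without parental replicate 2. With no filter on low levels SIRT4 (limma adjusted p = 0.105) and SIRT5 (0.0598) were lost, and both were lost after quantile normalization.

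Because FPKM, the unit assumed here, is scaled to length, levels of different genes were also set side by side. The summed FPKM of the 18 demethylases overlapped between groups, at 271 to 278 in parental and 251 to 278 in adapted samples. The 11 deacetylases summed to 242 to 247 FPKM in parental and 215 to 235 in adapted samples, and the 7 sirtuins to 45.5 to 48.6 and 52.1 to 54.1, neither with overlap. The mean sirtuin sum went from 47.5 to 53.2 FPKM, and SIRT7 alone from 11.0 to 16.7. The mean deacetylase sum went from 244 to 228 FPKM. HDAC1 went from 63.5 to 41.9 and HDAC9, which was not called, from 61.3 to 46.0, while 5 deacetylases were called higher. As a share of each sample's summed values the deacetylases held 0.0629% to 0.0649% and 0.0554% to 0.0627%, and the sirtuins 0.0119% to 0.0127% and 0.0134% to 0.0144%, still without overlap. When the mitochondrially encoded genes were left out of that sum, a scaling chosen after the data were seen, the deacetylases overlapped (0.0689% to 0.0705% and 0.0621% to 0.0701%) and the sirtuins did not (0.0130% to 0.0139% and 0.0151% to 0.0161%).

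Within families, HDAC1 held 25.9%, 25.2% and 26.9% of the summed deacetylase FPKM in parental samples and 22.7%, 17.0% and 15.9% in adapted samples. HDAC2 held 3.94%, 3.88% and 4.09% against 7.50%, 11.9% and 5.64%. HDAC9 held 25.6%, 25.6% and 24.0% against 14.1%, 20.3% and 25.7%, with replicate 1 the lowest. The share of SIRT7 in the sirtuins was 23.3%, 24.1% and 22.2% in parental and 30.1%, 32.0% and 31.9% in adapted samples, and that of SIRT1 went from 14.2%, 14.6% and 13.2% to 10.0%, 10.5% and 9.89%. Among demethylases KDM4A took 11.7%, 12.4% and 11.6% against 15.5%, 15.3% and 16.7%, passing KDM1A as the most abundant, and KDM3A took 10.1%, 10.1% and 10.3% against 6.95%, 7.76% and 6.67%. Apart from HDAC9, each of these shares had groups without overlap (exact permutation p = 0.1, two-sided, the smallest that 3 against 3 allow, and 0.2 after adjustment over 34 shares). Shares of other members also reached this smallest p. Among them was SIRT2 (mean share 21.7% to 19.6%), whose own log2 fold change was 0.02, since a share also depends on the other members of its family. The share of HDAC9 had an exact permutation p of 0.4.

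**Figure D3:**
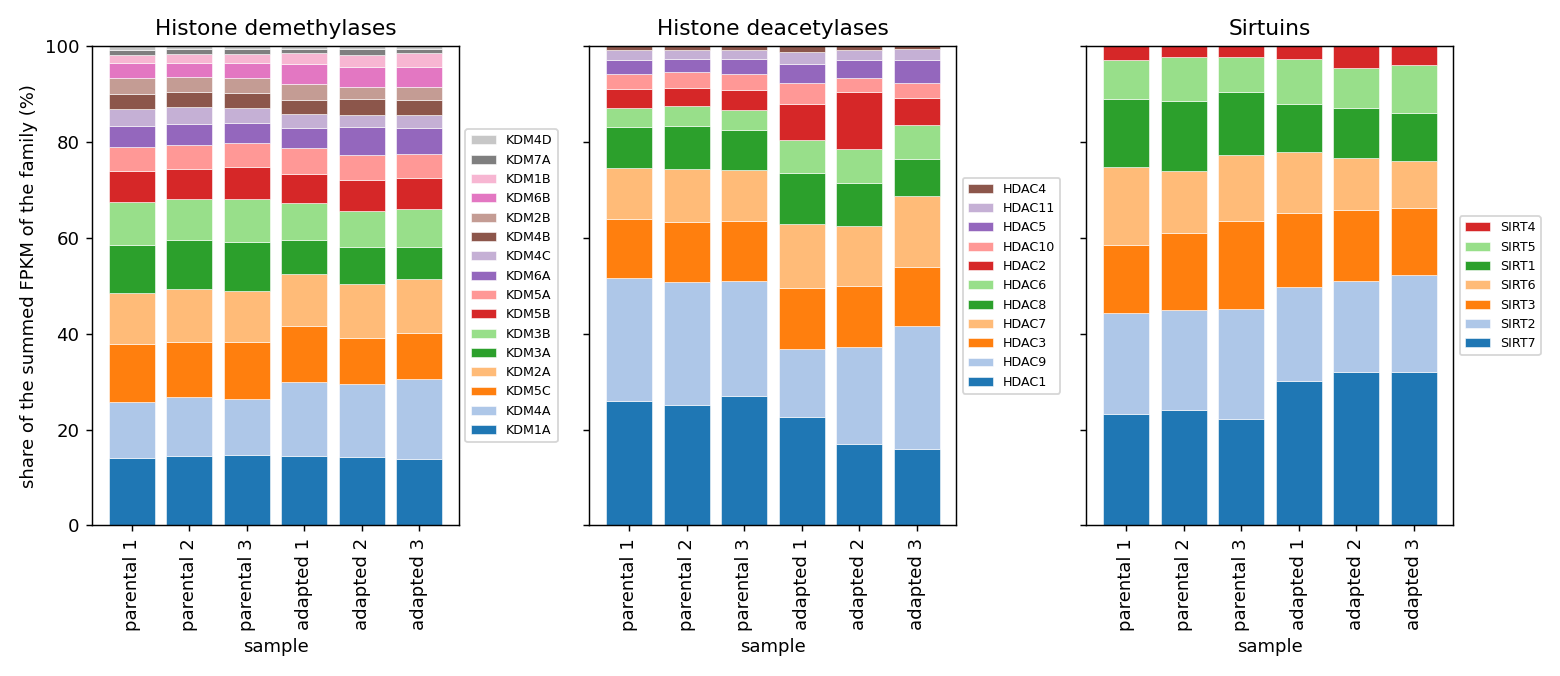
Share of each member in the summed FPKM of its family (%), as stacked bars from 0 to 100 for each of the 6 samples. The HDAC1 segment shrank from 26.0% to 18.5% and the SIRT7 segment grew from 23.2% to 31.3% of the mean bar.

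Ratios of FPKM within 8 pairs of related members, chosen after their values were seen, are given as a description, since that choice largely fixed which ratios separate the groups. The HDAC2 to HDAC1 ratio was 0.152, 0.154 and 0.152 in parental samples and 0.331, 0.703 and 0.354 in adapted samples, so that even the lowest adapted ratio was above all parental ones. KDM4A to KDM4C was 3.37, 3.54 and 3.68 against 5.24, 5.84 and 6.09. SIRT7 to SIRT6 was 1.43, 1.85 and 1.63 against 2.36, 2.96 and 3.26. Conversely, KDM3A to KDM3B fell from 1.15, 1.18 and 1.14 to 0.883, 1.03 and 0.836, and HDAC9 to HDAC7 from 2.45, 2.34 and 2.28 to 1.06, 1.63 and 1.73. KDM1B to KDM1A was 0.130, 0.128 and 0.136 against 0.166, 0.173 and 0.205. KDM6B to KDM6A and SIRT4 to SIRT3 overlapped between groups.

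**Figure D4:**
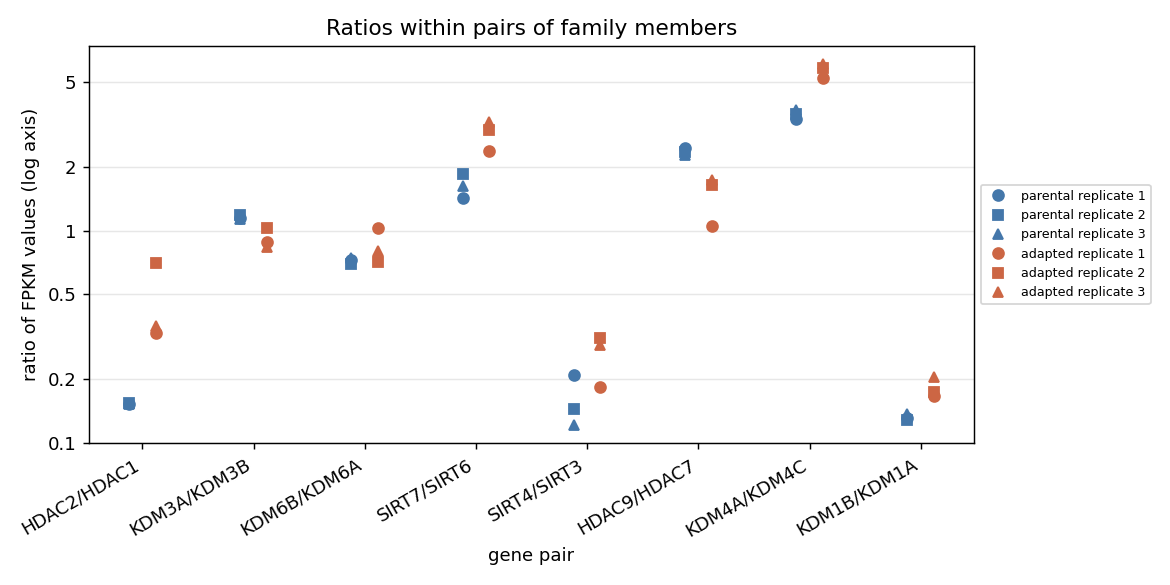
Ratio of FPKM values (log axis) in 8 pairs of family members, 1 symbol per sample, parental in blue and adapted in orange. HDAC2 to HDAC1 sits near 0.15 in all parental samples and between 0.331 and 0.703 in adapted samples.

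Proteins that act with or against these enzymes were described from lists written with earlier results of these data known, and counts are read against the 30.7% of all rows called higher and the 26.2% called lower. Of 30 tested subunits of deacetylase complexes, 5 were higher and 13 lower, with a median log2 fold change of -0.17. The largest falls were those of TBL1XR1 of the NCoR complex (4.64 to 4.01 in mean log2 level), MTA3 of NuRD (4.72 to 4.20) and PHF21A of CoREST (3.53 to 3.03), with limma adjusted p of 0.000215, 0.000841 and 0.000878. GPS2 of NCoR (4.74 to 5.14), BRMS1 of Sin3 (4.44 to 4.81) and MBD3 of NuRD (4.61 to 4.93) rose most, with limma adjusted p of 0.00458, 0.00693 and 0.0152. NCoR, NuRD and Sin3 each had subunits called higher and subunits called lower.

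Among 26 histone methyltransferases, 1 was higher and 10 lower, and the median was -0.09. EZH2, whose mark KDM6A and KDM6B remove, fell from 4.49 to 3.62 in mean log2 level (limma adjusted p = 9.23e-05). NSD2 fell from 5.52 to 4.70 (0.000442) and KMT5A from 4.37 to 3.73 (0.00614), while SETD1B rose from 2.76 to 3.16 (0.00387), all by limma. Of 10 acetyltransferases, CREBBP (3.45 to 3.99, limma adjusted p = 0.00488) and KAT5 (4.25 to 4.49, 0.0254) rose and KAT2B fell (2.01 to 1.66, 0.0132). Of 7 tested jumonji proteins whose symbols the selection rule left out, RIOX1 rose (1.89 to 3.05, limma adjusted p = 6.87e-05). JMJD6 (3.76 to 3.0, limma adjusted p = 0.00186), RIOX2 (3.77 to 3.31, 0.00336) and JMJD1C (3.62 to 3.42, 0.0485) fell. KDM8 (0.73 to 1.43) also passed the threshold as higher (limma adjusted p = 0.0042). It met the filter of a mean of at least 1 only through its adapted level, so its call cannot serve as support for a rise.

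Of the 9 genes of NAD synthesis, the cofactor that sirtuins consume, 5 were tested. NAMPT, the rate-limiting enzyme of NAD salvage, had log2 levels of 7.63, 7.58 and 7.54 in parental and 6.11, 6.15 and 6.02 in adapted samples, the groups lying far apart. It fell by 1.49 (SE 0.06, limma adjusted p = 4.73e-06), a larger change than that of any sirtuin. NADSYN1 rose from 4.15 to 4.84 (limma adjusted p = 0.000408).

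All 6 proliferation markers were lower in adapted cells. MKI67 had log2 levels of 5.05, 5.05 and 5.04 in parental and 3.61, 2.88 and 2.98 in adapted samples, and TOP2A had 7.53, 7.53 and 7.47 against 5.34, 4.49 and 4.39. In both genes, adapted replicate 1 was the nearest to the parental samples. The summed FPKM of the list was 486 to 496 in parental and 128 to 217 in adapted samples, and its part in the results for the 3 families was not tested. In bulk samples such as these, fewer cells of a kind and less RNA per cell cannot be told apart. Of the 17 members called, adapted replicate 1 was the adapted sample nearest to the parental mean in 10 (58.8%), against 54.8% of all rows called.

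**Figure D5:**
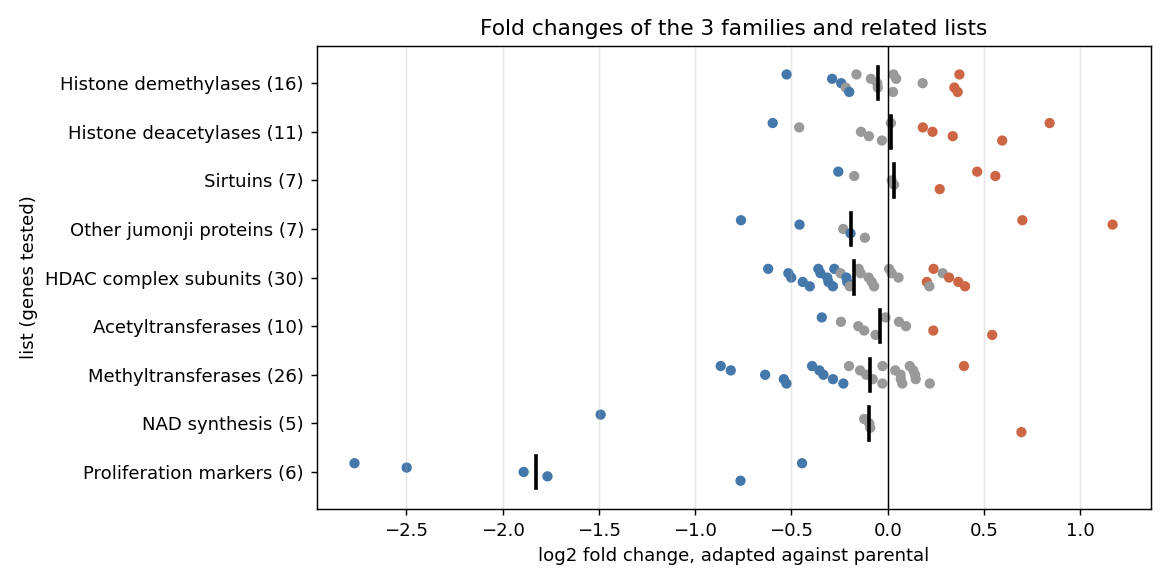
Log2 fold changes of the tested genes of the 3 families and 6 related lists (1 point per gene, orange higher and blue lower past the adjusted threshold, gray not past it), with a bar at each median. The families center near 0, while all 6 proliferation markers lie below 0 around a median of -1.83.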

How the data were processed

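RNA-sequencing values of 6 H1975 samples were used, 3 parental and 3 adapted, grouped by the sample titles. The authors deposited 1 table of log2 values with 27216 rows and 1 column per sample, whose unit is not named. It was taken as log2(FPKM + 1). The log2(value + 1) form was read from 2 to the power of the value, minus 1, which had 6 decimals in 27069 rows. No member was among the other 147. That the unit is FPKM was assumed, since 6 decimals cannot tell it from another unit. The submitters' processing notes name hg38, Bowtie2 2.1.0, STAR and edgeR without a role, and the study's methods name a test for counts. The quantifier and annotation are not given in the sources used here, and depth is unknown, so only the spread between replicates is available as error. The deposited values are not counts, so limma 3.58.1 in R 4.3.3 (lmFit, eBayes with an intensity trend) was run on the deposited log2 values of all 12656 rows with a mean of at least 1, with a two-sided threshold of 0.05 after Benjamini-Hochberg adjustment. Shares and ratios used linear values, with exact permutation tests for shares. Coordinates, overlaps and sequences come from GENCODE v29 (GRCh38), with Python 3.11.15.

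The members and lists were chosen with earlier results of these data known. Every member was named, with up to 3 genes that rose most and 3 that fell most of each related list, and MKI67 and TOP2A. Alternatives tried were log2(FPKM + 0.1), no filter, a filter at a mean of 3, 4 other scalings (quantile, equal sum with or without mitochondrially encoded genes, median centering), eBayes without a trend or robust, a replicate block, leaving out each sample, the rows named NewGene or the 147 rows, subtracting the constants that return those rows to 6 decimals, and stricter thresholds.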

Additional observations from a re-analysis of the deposited data

How the results depend on the processing

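Of 637 refits of single members, 561 kept direction and side of the threshold, 53 lost the call, 8 gained it and 15 changed sign; every sign change was in a member that did not pass. The number of deacetylases called higher (5) was 2 with no filter, 3 after quantile normalization, median centering or with the replicate block, 1 at an adjusted p under 0.01 and 2 with a required change of 0.5 (log2). That of sirtuins called higher (3) was 1 with no filter, quantile normalization, the replicate block or either stricter threshold. That of sirtuins called lower (1) was 0 at either stricter threshold. With a mean of at least 3, 1 sirtuin was called higher and 0 lower, but SIRT1, SIRT4 and SIRT5 were removed before that test. Demethylases called lower (4) numbered 1 at either stricter threshold and 5, with KDM4D, after quantile normalization, median centering or without an intensity trend, and those called higher (3) were 0 at the fold threshold. All rows called (7202) were 4532 with a mean of at least 3, where fewer rows were tested, and 3798 at the fold threshold. Leaving out 1 sample gave 5763 to 8370 rows called, 2 to 4 demethylases higher and 2 to 5 lower, 1 to 4 deacetylases higher and 1 to 2 lower, 1 to 3 sirtuins higher and 0 to 1 lower, and family medians of -0.092 to -0.0081, -0.066 to 0.093 and -0.0020 to 0.131 (in the order given).

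The log2 fold change turned to -0.039 for KDM7A and -0.0093 for HDAC10 after quantile normalization, -0.0037 for HDAC10 after median centering and 0.016 for HDAC8 after equal sums without mitochondrially encoded genes. Leaving out 1 sample turned the sign in 1 or more fits for KDM2A (range -0.0025 to 0.087), KDM4B (-0.084 to 0.0011), KDM7A (-0.103 to 0.16), HDAC8 (-0.11 to 0.064), HDAC10 (-0.099 to 0.093), SIRT2 (-0.029 to 0.075) and SIRT3 (-0.031 to 0.13). Shares without the member most abundant over all 6 samples (KDM1A, HDAC9 or SIRT7) were also taken. They changed sign for HDAC3 (-0.996 percentage points), HDAC8 (-0.142), SIRT2 (0.409) and SIRT3 (0.436). Leaving out a member rescales the other shares of its family, and the shares of HDAC9 and SIRT7 themselves had changed by -5.05 and 8.17 percentage points. The cause of the sign changes in log2 fold change was not tested. Deviations of samples with the same replicate number did not go together (correlations of -0.051, -0.031 and -0.02), so the numbers were not taken to pair samples; with the replicate block HDAC7, HDAC11, KDM3B, SIRT4 and SIRT5 missed the threshold. With depth unknown and 3 samples a group, a member that did not pass was not shown to be unchanged.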
